A study of Zea mays with 28 samples.

Results

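The genes described here are the 4 late genes of benzoxazinoid synthesis in maize, *BX10* (GRMZM2G311036), *BX11* (GRMZM2G336824), *BX13* (AC148152.3_FG005) and *BX14* (GRMZM2G127418). They were taken by identifier from the 39625 genes of the count table because they act after DIMBOA-Glc, and all 4 passed the expression filter that left 22339 genes for testing. The plants were 22 days old and of the inbred B73, and each library came from an enclosed segment of the leaf number 4 of a plant. Every leaf carried wax barriers, and the 7 groups of 4 leaves were controls with barriers alone and leaves given *O. pratensis* (the Banks grass mite, a grass specialist), *T. urticae* (the two-spotted spider mite, a generalist) or wounding with sandpaper, each 2 or 24 h before harvest. The mites were adult females, 400 per leaf for 2 h and 200 per leaf for 24 h, so effects of mite number and time cannot be told apart. Treatments were started at different times and the harvest was common, and the same 4 control leaves entered every comparison with controls. Wounding was done once, at the start, so 2 or 24 h of wounding means the time since then. Mites stayed on the leaves until harvest. Between mites and wounding, effects of the kind of damage and of its duration cannot be told apart.

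Benzoxazinoids are defense compounds of grasses that are stored as inactive glucosides and released by β-glucosidases when cells are damaged. The enzymes BX1 to BX9 build DIMBOA-Glc from an indole precursor. The O-methyltransferases BX10 and BX11 then convert DIMBOA-Glc to HDMBOA-Glc, a less stable compound that has been linked to herbivory. BX13, a dioxygenase, and BX14, an O-methyltransferase, act on the branch that leads to HDM2BOA-Glc. A related O-methyltransferase, BX12, is disrupted in B73, and it could not be tied to an identifier of the table and was not analysed here.

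Between 14721310 and 32891100 uniquely aligned reads were counted per leaf. Levels are given as CPM, reads of the gene relative to the TMM-scaled library total,, and they compare leaves for one gene, not one gene with another. DEGs were called with edgeR's quasi-likelihood test, fitted over all genes and all 28 leaves, where the adjusted p did not exceed 0.01 and the log2 fold change was 1 or more in either direction. *BX13* and *BX14* passed the expression filter through the leaves with 24 h of mites, as their mean in every other group was at most 0.212 CPM. For these 2 genes, calls that set those leaves against other groups thus rest on the values that admitted the genes. Their calls against controls, against 2 h of mites and against wounding at 24 h held in fits without the filter. Where a group had no read of a gene, the fold change is a lower bound against 3 reads over the 4 leaves of that group together, which for controls equals 0.0293 CPM. The bound covers counting error in that group alone. The mesophyll markers *PEP1* and *PDK1* and the bundle sheath markers *ME3* and *PCK1* were abundant in every leaf and none was at 0. Their summed level was 73500 to 97200 CPM in controls, 73800 to 88900 and 49900 to 58800 after 2 and 24 h of *O. pratensis*, 73900 to 87900 and 34400 to 50700 after 2 and 24 h of *T. urticae*, and 55100 to 62500 and 57900 to 64900 after 2 and 24 h of wounding. Against controls, all 4 markers were lower and passed the p threshold with 24 h of either mite and 2 h after wounding. All but *PEP1* did so 24 h after wounding. Only *PDK1*, after 24 h of *T. urticae*, also reached the fold threshold and was called lower. The part of these shifts in the results was not tested. In whole leaf segments, a change in the number of cells that express a gene and a change in its RNA per cell cannot be told apart.

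*BX10* and *BX11* were nearly silent in control leaves. The 4 controls held 2, 5, 3 and 1 reads of *BX10*, or 0.0758, 0.171, 0.125 and 0.0442 CPM. They held 4, 2, 4 and 5 reads of *BX11*, or 0.152, 0.0684, 0.167 and 0.221 CPM. No read of *BX13* or *BX14* was counted in any control leaf. Every leaf of every treatment lay above all controls for *BX10* and *BX11*, whereas for *BX13* and *BX14* leaves with 2 h of mites were mostly at 0 as well.

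**Figure D1:**
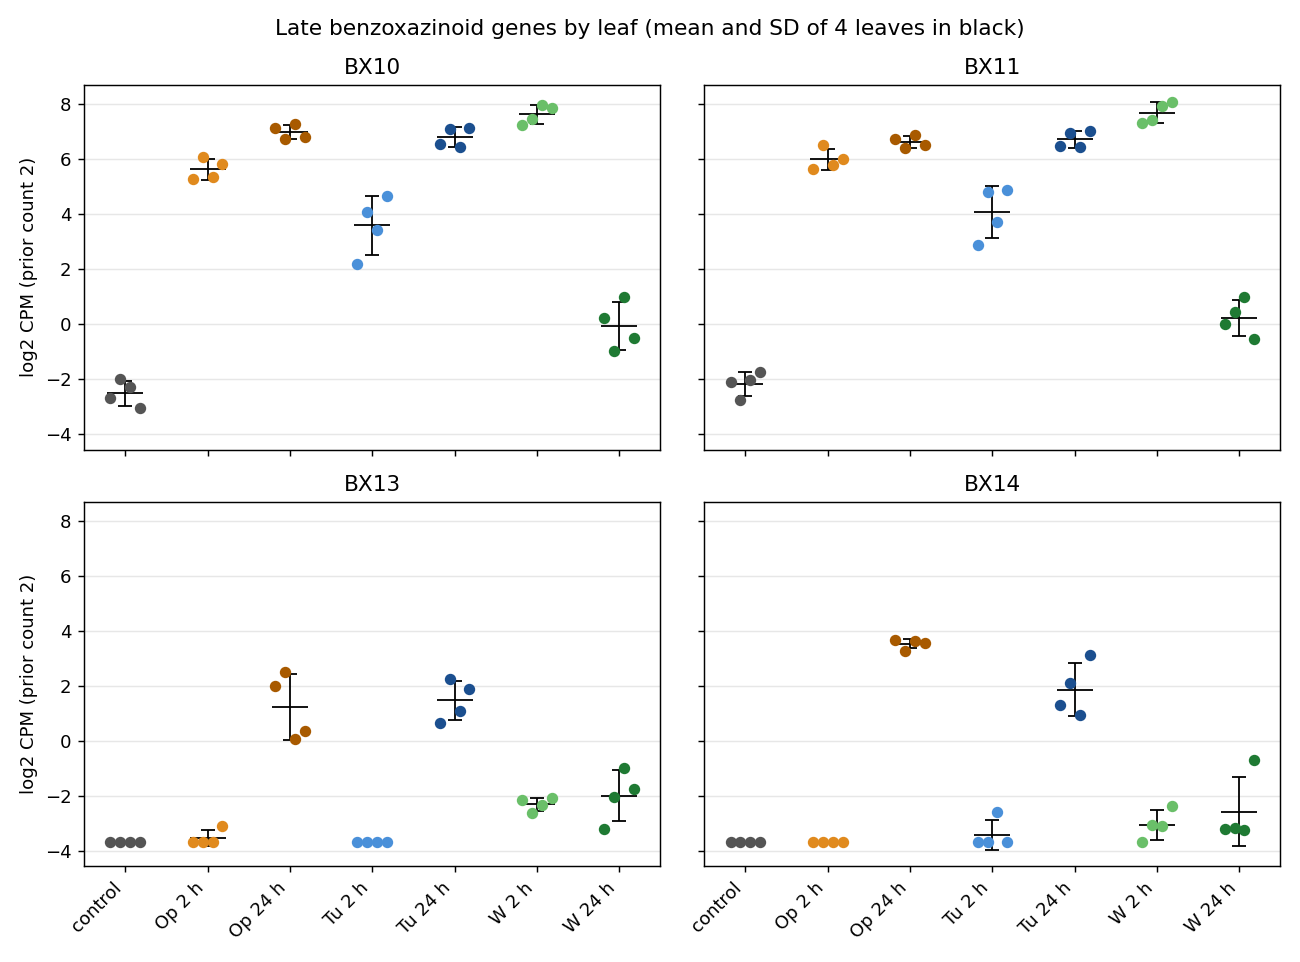
Log2 CPM (prior count 2) of *BX10*, *BX11*, *BX13* and *BX14* in each of the 28 leaves, with the group mean and SD of 4 leaves in black (Op, *O. pratensis*; Tu, *T. urticae*; W, wounding). A leaf without a read sits at the lowest value, -3.68, which is set by the prior count. *BX10* and *BX11* are high after 2 h of wounding and low after 24 h of wounding, and *BX13* and *BX14* are high only in the leaves with 24 h of mites.

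After 2 h of *O. pratensis*, the HDMBOA-Glc genes were already strongly upregulated. *BX10* was at 38.2, 67.8, 40.3 and 55.7 CPM (50.5 ± 13.9, SD, n = 4) in the 4 leaves. *BX11* was at 50, 90.8, 54.4 and 63.8 CPM (64.8 ± 18.3, SD, n = 4). All of these leaves lay far above the controls. The log2 fold change against controls was 8.81 (SE 0.58, edgeR adjusted p = 9.22e-12) for *BX10* and 8.73 (SE 0.51, edgeR adjusted p = 2.07e-12) for *BX11*. These were 2 of the 4 genes, beside 5.25% of all genes tested that were called higher in this comparison.

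After 2 h of *T. urticae*, the same pair was upregulated to a lower level and with more spread between leaves. *BX10* was at 4.48, 16.9, 10.5 and 25 CPM (14.2 ± 8.79, SD, n = 4). *BX11* was at 7.3, 27.5, 13.1 and 29.1 CPM (19.2 ± 10.7, SD, n = 4). The lowest leaf was the same one for both genes, replicate 1. The log2 fold change against controls was 6.99 (SE 0.6, edgeR adjusted p = 5.18e-09) for *BX10* and 6.98 (SE 0.52, edgeR adjusted p = 5.85e-10) for *BX11*, where 2.47% of all genes tested were called higher.

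The comparison of the mites with each other at 2 h asks whether the grass specialist and the generalist induced these genes to the same extent. *BX10* was higher with *O. pratensis* by a log2 fold change of 1.82 (SE 0.34, edgeR adjusted p = 0.00281) and *BX11* by 1.75 (SE 0.3, edgeR adjusted p = 0.00176). For both genes the 4 leaves with *O. pratensis* lay above the 4 with *T. urticae*, as was also so for *BX3*, *BX5* and *BX6*. The share of all genes with such a separation is not given here. Of all genes tested, 0.68% were called higher with *O. pratensis* at 2 h. A fit of only these 8 leaves lost both calls, at log2 fold changes of 1.83 for *BX10* (edgeR adjusted p = 0.0816) and 1.76 for *BX11* (edgeR adjusted p = 0.0781). In edgeR fits that left out *T. urticae* replicate 3, the values were 1.71 for *BX10* (adjusted p = 0.0219) and 1.61 for *BX11* (adjusted p = 0.0157). With *O. pratensis* replicate 2 left out, they were 1.66 (edgeR adjusted p = 0.0156) and 1.55 (edgeR adjusted p = 0.0113). Leaving out the lowest leaf, *T. urticae* replicate 1, the log2 fold change of *BX10* was 1.53 (edgeR adjusted p = 0.0105) and *BX11* stayed called.

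After 24 h the leaves with either mite held overlapping levels of *BX10* and *BX11*. *BX10* was at 140, 105, 153 and 110 CPM (127 ± 23.1, SD, n = 4) with *O. pratensis*. It was at 92.7, 135, 87 and 137 CPM (113 ± 26.8, SD, n = 4) with *T. urticae*. The species overlapped widely, and the difference of 0.17 on the log2 scale had a 95% interval of -0.48 to 0.82.

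*BX11* overlapped as well, at 105, 83.3, 116 and 89.8 CPM (98.6 ± 14.9, SD, n = 4) with *O. pratensis*. With *T. urticae* it was at 88.2, 122, 87 and 129 CPM (107 ± 22.3, SD, n = 4). The log2 difference was -0.12 with a 95% interval of -0.71 to 0.48. Against controls, *BX10* rose by 10.14 (SE 0.58, edgeR adjusted p = 2.88e-13) with *O. pratensis* and by 9.97 (SE 0.58, edgeR adjusted p = 2.21e-13) with *T. urticae* on the log2 scale. *BX11* rose by 9.34 (SE 0.51, edgeR adjusted p = 1.44e-13) and by 9.46 (SE 0.51, edgeR adjusted p = 5.87e-14).

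The leaves harvested 2 h after wounding had the highest levels of *BX10* and *BX11* among the 7 groups. *BX10* was at 148, 174, 248 and 229 CPM (200 ± 46.8, SD, n = 4), a log2 fold change of 10.8 (SE 0.58, edgeR adjusted p = 9.69e-15) over controls. *BX11* was at 157, 171, 244 and 270 CPM (211 ± 55, SD, n = 4), a log2 fold change of 10.44 (SE 0.51, edgeR adjusted p = 1.87e-15). For *BX11* all 4 wounded leaves lay above every mite leaf, while for *BX10* the lowest wounded leaf lay within the range of leaves with 24 h of *O. pratensis*. In this comparison 17% of all genes tested were called higher.

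By 24 h after wounding both genes had fallen far below their 2-h level but stayed above the control level. *BX10* was at 1.08, 0.426, 1.9 and 0.632 CPM (1.01 ± 0.651, SD, n = 4). *BX11* was at 0.93, 1.28, 1.92 and 0.601 CPM (1.18 ± 0.566, SD, n = 4). Even the lowest of these leaves lay above the highest control. The log2 fold change over controls was 3.2 for *BX10* (SE 0.79, edgeR adjusted p = 0.00295) and 2.98 for *BX11* (SE 0.67, edgeR adjusted p = 0.0012), where 7.8% of all genes tested were called higher. The *BX10* call was lost in edgeR fits without control replicate 1 (log2 fold change 3.04, adjusted p = 0.0116), control replicate 3 (3.25, adjusted p = 0.0107), control replicate 4 (2.95, adjusted p = 0.0106) or wounded replicate 3 (2.69, adjusted p = 0.0177), and the *BX11* call held in each of these fits.

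The genes of the HDM2BOA-Glc branch followed another course, with appreciable levels only after 24 h of mites. *BX13* had 118, 165, 25 and 31 reads (3.91, 5.57, 0.964 and 1.19 CPM) in the leaves with 24 h of *O. pratensis*. It had 33, 122, 50 and 96 reads (1.5, 4.63, 2.06 and 3.59 CPM) with 24 h of *T. urticae*. The group means were 2.91 ± 2.22 and 2.95 ± 1.43 CPM (SD, n = 4), and the leaves overlapped completely. Against controls *BX13* was at least 103-fold higher with either mite (edgeR adjusted p = 1.14e-06 for *O. pratensis*, 7.18e-07 for *T. urticae*).

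*BX14* was more even among leaves with *O. pratensis* and more variable with *T. urticae*. It had 385, 285, 314 and 307 reads (12.8, 9.62, 12.1 and 11.8 CPM) with 24 h of *O. pratensis*, a mean of 11.6 ± 1.37 CPM (SD, n = 4). It had 52, 110, 45 and 230 reads (2.36, 4.18, 1.86 and 8.61 CPM) with 24 h of *T. urticae*, a mean of 4.25 ± 3.07 CPM (SD, n = 4). Every leaf with *O. pratensis* lay above every leaf with *T. urticae*, as was also so for the marker *PDK1*. The share of all genes with such a separation is not given here. Against controls the level of *BX14* was at least 394-fold higher under *O. pratensis* (edgeR adjusted p = 1.27e-08) and, under *T. urticae*, at least 150-fold higher (edgeR adjusted p = 2.49e-07). Thus all 4 late genes were called higher at 24 h with each species, beside 12.3% of all genes tested with *O. pratensis* and 15% with *T. urticae*.

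At 24 h no late gene was called different between the mites in the edgeR test, and 0.9% of all genes tested were called in either direction. One gene, *BX14*, had an unadjusted edgeR p under 0.05, and DESeq2 also called 0. The share of all genes with such an unadjusted p is not given here. The log2 difference of *BX14* was 1.43 (SE 0.42, 95% interval 0.57 to 2.3, edgeR adjusted p = 0.0522), and that of *BX13* was -0.02 (95% interval -0.96 to 0.93). *BX14* became a call without *T. urticae* replicate 4, which held 52.6% of the reads of that group (log2 difference 2.04, edgeR adjusted p = 0.00942), and with the replicate number as a block (1.69, edgeR adjusted p = 0.00904).

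Early mite feeding and wounding left few reads of these genes. With 2 h of *O. pratensis*, 1 read of *BX13* and no read of *BX14* was counted over the 4 leaves. With 2 h of *T. urticae*, no read of *BX13* and 2 reads of *BX14*, both in 1 leaf, were counted. These totals are at or under the floor of 3 reads, so no fold change is given, and induction at 2 h was not detectable at this depth.

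Wounded leaves held a trace of *BX13*, with 4, 2, 3 and 4 reads (0.148, 0.084, 0.121 and 0.158 CPM) at 2 h. At 24 h they held 1, 5, 15 and 7 reads (0.031, 0.164, 0.431 and 0.221 CPM). Every wounded leaf thus had at least 1 read while every control had none. Set against 3 reads over the controls, the levels were 4.39-fold and 7.39-fold higher, without the counting error of the wounded leaves. The edgeR 95% intervals of the log2 fold change were 0.68 to 8.86 and 1.87 to 9.11. Neither change was a DEG in edgeR (adjusted p = 0.0423 and 0.0195), whereas DESeq2 called both (adjusted p = 0.00199 and 0.000414).

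*BX14* had 0, 1, 1 and 3 reads at 2 h of wounding. At 24 h it had 1, 1, 1 and 17 reads (0.031, 0.0328, 0.0287 and 0.537 CPM), so that 1 leaf, replicate 4, held 85% of them. Set against 3 reads over the controls, the levels were 1.69-fold and 5.28-fold higher, without the counting error of the wounded leaves. The edgeR 95% intervals of the log2 fold change were -1.67 to 8.63 and 0.86 to 9.21. Neither change was called in edgeR (adjusted p = 0.238 and 0.0585). DESeq2 called the later one (adjusted p = 0.00768).

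The order of the groups by mean level therefore differed between the branches. For *BX10* it ran from controls through wounding at 24 h, *T. urticae* at 2 h, *O. pratensis* at 2 h, *T. urticae* at 24 h and *O. pratensis* at 24 h to wounding at 2 h. Neighbours overlapped only between the mites at 24 h and between *O. pratensis* at 24 h and wounding at 2 h. *BX11* had the same order with the species exchanged at 24 h, and its neighbours overlapped between the mites at 24 h and between 2 and 24 h of *O. pratensis*, but not between *T. urticae* at 24 h and wounding at 2 h. For *BX13* and *BX14* the groups with 24 h of mites were at the top, separated from all other groups, with the wounded leaves next.

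The change from 2 to 24 h was tested within each treatment. With *O. pratensis*, *BX10* rose by 1.33 on the log2 scale (SE 0.32, edgeR adjusted p = 0.00238), while the change of *BX11* was 0.61 (SE 0.29, 95% interval 0.01 to 1.21, edgeR adjusted p = 0.116) and was not called. At 2 h the mean of *BX10* was 39.8% of its 24-h mean and that of *BX11* 65.7%. The *BX10* call was lost without *O. pratensis* replicate 1 at 2 h (1.2, edgeR adjusted p = 0.0119) or replicate 3 at 2 h (1.22, edgeR adjusted p = 0.0125). *BX13* was 259-fold higher at 24 h than at 2 h by its reads (exact 95% counting interval 46.2 to 10300, edgeR adjusted p = 6.46e-06) and *BX14* at least 329-fold higher (edgeR adjusted p = 6.33e-08). These were 3 calls of 4 genes, beside 6.76% of all genes tested.

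With *T. urticae* all 4 genes rose from 2 to 24 h, beside 11.5% of all genes tested. *BX10* rose by 2.99 (SE 0.35, edgeR adjusted p = 9.67e-08) and *BX11* by 2.47 (SE 0.31, edgeR adjusted p = 3.23e-07) on the log2 scale, and their 2-h means were 12.6% and 18% of those at 24 h. *BX13* was at least 88.1-fold higher (edgeR adjusted p = 1.79e-06). *BX14* was 192-fold higher by its reads (exact 95% counting interval 52.8 to 1590, edgeR adjusted p = 1.04e-06).

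After wounding, the HDMBOA-Glc genes fell while the HDM2BOA-Glc genes stayed at a trace level. *BX10* fell by 7.6 (SE 0.45, edgeR adjusted p = 7.48e-14) and *BX11* fell by 7.46 (SE 0.4, edgeR adjusted p = 1.67e-14) on the log2 scale, to 0.505% and 0.562% of their 2-h means. Of all genes tested, 14.7% were called lower. The changes of *BX13* (0.72, 95% interval -1.11 to 2.55, edgeR adjusted p = 0.49) and *BX14* (1.56, 95% interval -0.97 to 4.09, edgeR adjusted p = 0.276) were not called, and that of *BX14* had the opposite sign, -0.61, without wounded replicate 4 at 24 h.

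Mite feeding was also set against wounding directly, using the mean of both species. At 2 h *BX10* was lower with mites, with a log2 difference of -2.9 (SE 0.27, edgeR adjusted p = 4.53e-10), and so was *BX11*, with -2.58 (SE 0.24, edgeR adjusted p = 6.95e-10), beside 14.3% of all genes tested that were called lower. *BX13* (edgeR adjusted p = 0.0303) and *BX14* (edgeR adjusted p = 0.306) were not called in this comparison, in which DESeq2 called *BX13* lower (adjusted p = 0.000628). At 24 h all 4 genes were higher with mites, beside 8.34% of all genes tested. The log2 differences were 6.86 for *BX10* (SE 0.42, edgeR adjusted p = 2.98e-12), 6.42 for *BX11* (SE 0.38, edgeR adjusted p = 1.32e-12), 3.75 for *BX13* (SE 0.55, edgeR adjusted p = 1.3e-05) and 5.46 for *BX14* (SE 0.57, edgeR adjusted p = 1.77e-07). No leaf with mites overlapped with a wounded leaf in these 4 cases. The same held for *BX1*, *BX3*, *BX4*, *BX5*, *BX8*, *BX9* and the marker *PEP1*, though not for *BX2*, *BX6*, *PDK1*, *ME3* and *PCK1*. The share of all genes with such a separation is not given here.

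Whether the time course differed between mite feeding and wounding was tested as an interaction, a comparison added after the counts had been seen. Only *BX10* and *BX11* changed in opposite directions. The changes of *BX13* and *BX14* after wounding were 0.72 and 1.56, the same sign as with mites, and were not called. The change from 2 to 24 h was higher with mites than after wounding by 9.76 on the log2 scale for *BX10* (SE 0.51, edgeR adjusted p = 8.85e-15) and by 9 for *BX11* (SE 0.45, edgeR adjusted p = 4.87e-15). *BX13* (edgeR adjusted p = 0.000303) and *BX14* (edgeR adjusted p = 0.00845) were called too, beside 19.5% of all genes tested that were called higher. Both had passed the expression filter through the leaves with 24 h of mites, so these 2 calls rest on the values that admitted them. The fitted sizes of *BX13* and *BX14*, 7.64 and 7.68, depend on the prior count, since most leaves with 2 h of mites had no read of these genes. The *BX14* call was lost in 12 of the 24 fits that left out 1 leaf, namely wounded replicates 2, 3 and 4 at 2 h and 1, 2 and 3 at 24 h, *T. urticae* replicates 1, 2 and 4 at 2 h and 2 at 24 h, and *O. pratensis* replicates 1 and 4 at 2 h. The edgeR adjusted p was highest without wounded replicate 4 at 2 h (6.89, adjusted p = 0.0876).

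Whether the species difference itself changed between 2 and 24 h was a further interaction. No late gene was called in edgeR, which called 0.739% of all genes tested in either direction. By other criteria, 2 had an unadjusted edgeR p under 0.05 and DESeq2 called 1. The shares of all genes by those criteria are not given here, and 0.739% is no measure for them. The log2 difference between species was smaller at 24 h than at 2 h by -1.65 for *BX10* (SE 0.46, edgeR adjusted p = 0.0456) and by -1.86 for *BX11* (SE 0.42, edgeR adjusted p = 0.0127). *BX11* passed the threshold when 1 of 3 leaves at 2 h was left out. These were *O. pratensis* replicate 1 (-2, edgeR adjusted p = 0.00957) and replicates 2 (-2.11, edgeR adjusted p = 0.00451) and 4 (-2.16, edgeR adjusted p = 0.00399) of *T. urticae*, and in the last of these fits *BX10* passed too (-2.1, edgeR adjusted p = 0.00642). With the replicate number as a block *BX11* passed as well (-1.87, edgeR adjusted p = 0.0062). For *BX13* and *BX14* the 2-h levels were too low for this comparison.

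The proportion of *BX10* and *BX11* was compared within leaves. The ratio of *BX11* to *BX10* reads in a leaf does not depend on library scaling, and it depends on the lengths of both genes, so only its changes are of interest. It was 1.31, 1.34, 1.35 and 1.15 with 2 h of *O. pratensis* and 0.746, 0.795, 0.763 and 0.815 with 24 h, with no overlap. With *T. urticae* it was 1.63, 1.63, 1.24 and 1.16 at 2 h and 0.951, 0.907, 1 and 0.945 at 24 h, again with no overlap. After 2 h of wounding it was 1.06, 0.988, 0.984 and 1.18, with a mean of 1.05 that lay between the 24-h and the 2-h means of the mite groups.

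As within-leaf log2 differences, *BX11* minus *BX10* changed by -0.72 from 2 to 24 h of *O. pratensis* and by -0.56 with *T. urticae*. Both had exact permutation p = 0.0286 (two-sided, 4 against 4 leaves, the smallest p this design allows) and p = 0.0515 after Benjamini-Hochberg adjustment over the 9 within-leaf comparisons made. At 24 h the 4 ratios with *O. pratensis* were all below the 4 with *T. urticae*, which was noticed after the values were seen and is given without a test. After 24 h of wounding the ratio ranged from 0.857 to 3 on 58 to 149 reads of all 4 genes per leaf, and *BX11* minus *BX10* changed by 0.22 (exact permutation p = 0.943).

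**Figure D2:**
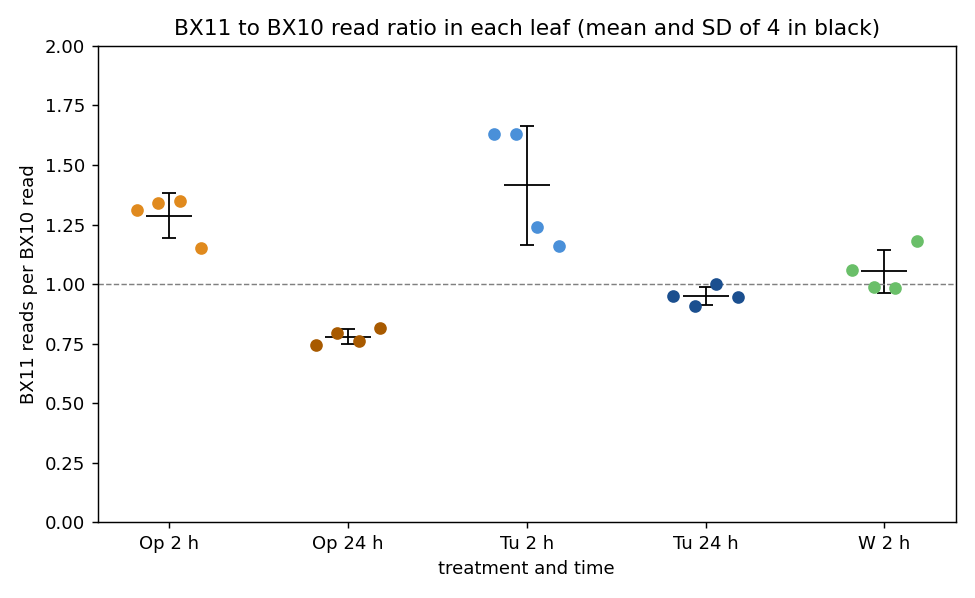
Reads of *BX11* per read of *BX10* in each leaf, for the 5 groups in which both genes were well covered (points, leaves; black, mean and SD of 4; dashed line, equal reads; Op, *O. pratensis*; Tu, *T. urticae*; W, wounding). With either mite the 4 ratios at 24 h lie below the 4 at 2 h, at means of 0.78 against 1.29 with *O. pratensis* and 0.951 against 1.42 with *T. urticae*.

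Between the branches, the largest within-leaf shift was that of *BX13* minus *BX10* after wounding, which changed by 7.99 from 2 to 24 h on the log2 scale (exact permutation p = 0.0286, adjusted p = 0.0515). In those leaves *BX10* fell, and the change of *BX13*, which was near the floor at both times, was not called. The shift and its p thus mainly repeat the fall of *BX10* and are no separate evidence. With mites the 2-h values of *BX13* rest on the prior count, and the change of the same difference moved from 3.4 to 5.1 with *O. pratensis* and from 1.94 to 3.89 with *T. urticae* when the prior count was lowered from 2 to 0.5. No test is read from them, nor from *BX14* minus *BX13* with mites, for which nearly all 2-h leaves held no read of either gene. After wounding *BX14* minus *BX13* changed by 0.16 (exact permutation p = 0.857, adjusted p = 0.971).

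Within the 24-h mite leaves, *BX14* and *BX13* did not keep a fixed proportion. *BX14* reads per *BX13* read were 3.26, 1.73, 12.6 and 9.9 in the leaves with *O. pratensis*. In those with *T. urticae* they were 1.58, 0.902, 0.9 and 2.4. The leaves with the most *BX13* under *O. pratensis*, replicates 1 and 2, had the lowest ratios of that group. This follows from *BX13* alone, by which the ratio divides, since *BX14* was even there (285 to 385 reads). As a description over the 8 leaves, which share their groups' means, deviations from the group mean had r = 0.99 between *BX10* and *BX11*, 0.79 between *BX10* and *BX14* and 0.83 between *BX11* and *BX14*. Those of *BX13* had r = 0.17 with *BX10*, 0.12 with *BX11* and 0.28 with *BX14*. All leaves here share the scaling of their libraries, so leaf-wide shifts enter every pair.

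**Figure D3:**
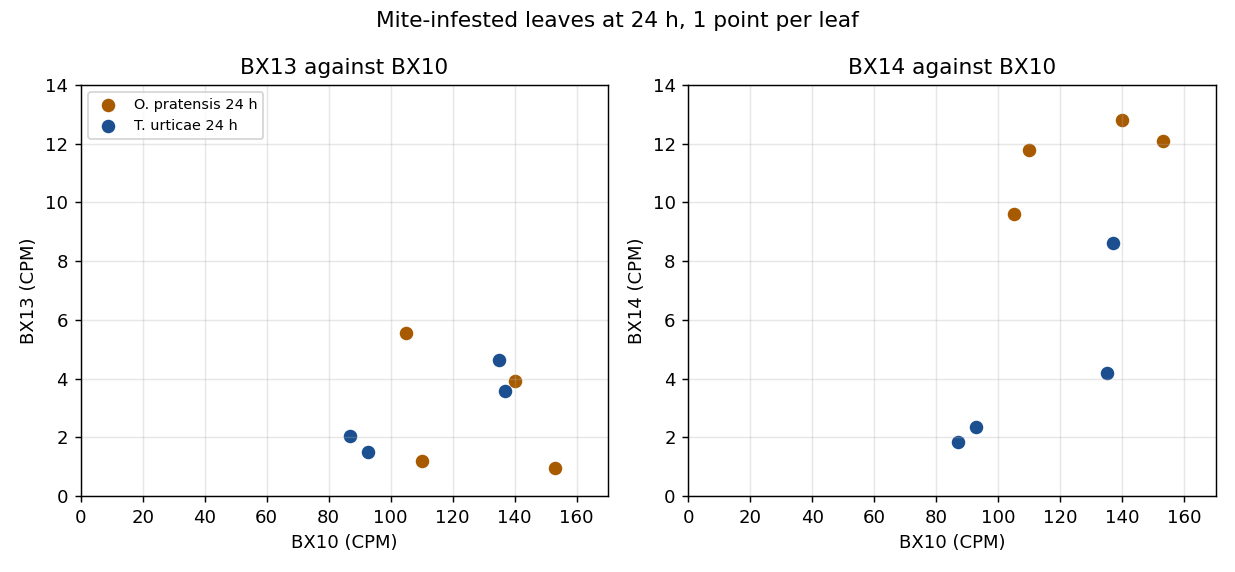
*BX13* (left) and *BX14* (right) against *BX10* in the 8 leaves with 24 h of mites, in CPM, 1 point per leaf. *BX14* lies at 9.62 to 12.8 CPM with *O. pratensis* and at 1.86 to 8.61 CPM with *T. urticae*, while *BX13* overlaps between the species and spreads from 0.964 to 5.57 CPM at similar *BX10* levels.

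The upstream part of the pathway gives a reference for these fold changes, though from other starting levels. Control means were 8.07 (*BX1*) to 203 CPM (*BX4*) upstream and 0 to 0.152 CPM for the late genes. Fold changes over a level near 0 can be large at a small amount of RNA. Of *BX1* to *BX9*, 8 genes were tested, and *BX7*, an O-methyltransferase, was not analysed here. With 24 h of mites 6 of the 8 were called higher with each species, beside 12.3% and 15% of all genes tested, at a median log2 fold change of 1.29 with *O. pratensis* and 1.56 with *T. urticae*. The medians over the late genes, whose fitted values for *BX13* and *BX14* depend on the prior count, were 9.74 and 9.62, and those over all genes tested -0.01 and 0.04. *BX1*, the indole lyase of the pathway, had the largest upstream change, at 3.42 (SE 0.72, edgeR adjusted p = 0.00042) with *O. pratensis* and 4.03 (SE 0.74, edgeR adjusted p = 5.03e-05) with *T. urticae*.

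At 2 h of mites few upstream genes passed both thresholds, and their changes were not tested against those of *BX10* and *BX11*. One of the 8, the dioxygenase gene *BX6*, was called higher with *O. pratensis* (1.07, SE 0.15, edgeR adjusted p = 3.13e-06) and none with *T. urticae* in edgeR. With *T. urticae* 2 had an unadjusted edgeR p under 0.05, and the share of all genes with such a p is not given here. With *O. pratensis*, *BX3* (0.76, edgeR adjusted p = 0.00159), *BX5* (0.73, edgeR adjusted p = 0.00195) and *BX9* (0.69, edgeR adjusted p = 0.00487) passed the p threshold and missed the fold threshold. After 2 h of wounding 6 of the 8 were higher, beside 17% of all genes tested, with a median of 1.61, and among these the P450 gene *BX3* rose by 2.38 (SE 0.17, edgeR adjusted p = 3.16e-12) and the glucosyltransferase gene *BX9* by 2.19 (SE 0.17, edgeR adjusted p = 2.01e-11) on the log2 scale. *BX1* was not among them (-0.61, 95% interval -2.12 to 0.89). From 2 to 24 h of wounding 6 of the 8 fell, beside 14.7% of all genes tested. None was called against controls at 24 h in edgeR. Of the 8, 3 had an unadjusted edgeR p under 0.05 there, and the share of all genes with such a p is not given here. *BX6* (0.95, SE 0.15, edgeR adjusted p = 1.59e-05) and the glucosyltransferase gene *BX8* (-0.46, SE 0.13, edgeR adjusted p = 0.00899) passed the p threshold there and missed the fold threshold.

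**Figure D4:**
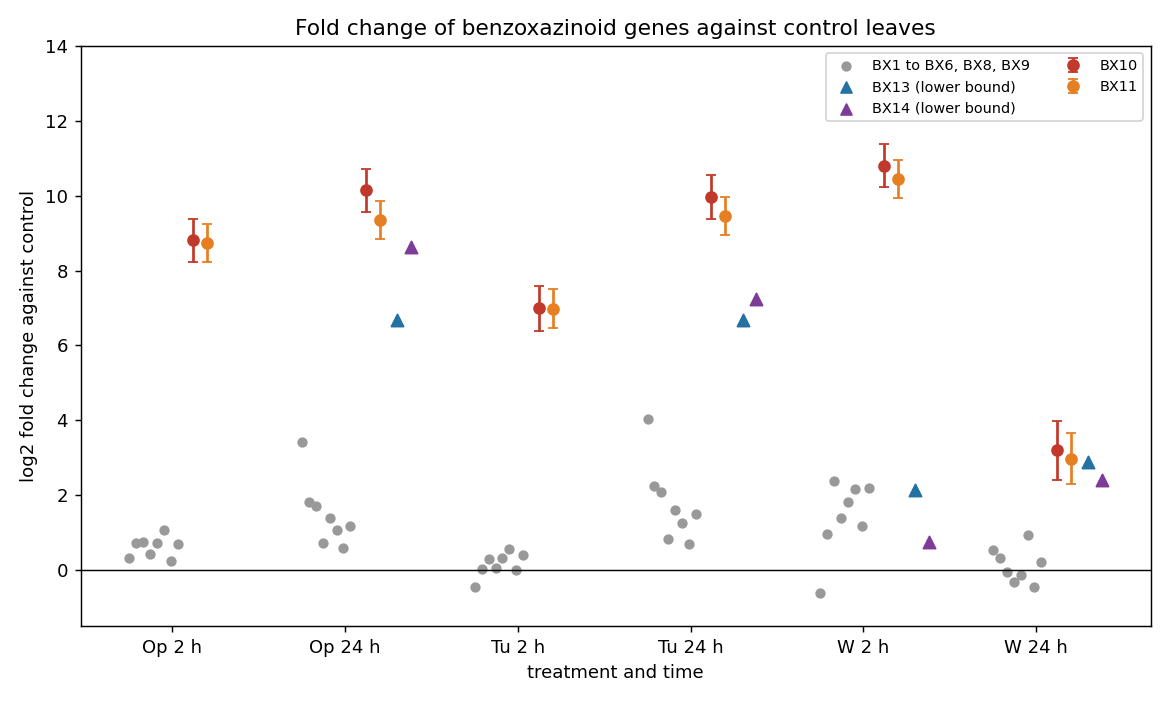
Log2 fold change against controls after 2 and 24 h of *O. pratensis* (Op), *T. urticae* (Tu) or wounding (W) for *BX10* and *BX11* (points with SE), the 8 upstream genes tested (grey points) and *BX13* and *BX14* (triangles, lower bounds against 3 reads over the 4 controls, drawn where the treated leaves held more than 3 reads). The triangles leave out the counting error of the treated leaves, which is large for the wounded ones. *BX10* and *BX11* lie between 2.98 and 10.8 and the upstream genes between -0.61 and 4.03.

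The β-glucosidase genes *GLU1* (GRMZM2G016890) and *GLU2* (GRMZM2G008247), whose products release the active compounds, were called in no comparison. Their largest change against controls was that of *GLU1* with 24 h of *O. pratensis* (1.13, SE 0.43, edgeR adjusted p = 0.0354).

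Genes with the most similar course over the 28 leaves were ranked by Pearson correlation of log2 CPM, as a description. *BX10* and *BX11* were each other's closest gene (r = 0.992). The next for *BX10* were *dxs2* (GRMZM2G493395, r = 0.989), a 1-deoxy-xylulose-phosphate synthase gene of plastid isoprenoid synthesis, and *TIFY29* (GRMZM2G036288, r = 0.984), of the family that holds JAZ repressors of jasmonate signalling. *TIFY29* was also close to *BX11* (r = 0.984), beside LOC100281373 (GRMZM2G087827, r = 0.986). *TIFY29* had no read in controls and means of 54.2 ± 15.2 CPM after 2 h of wounding and 0.0906 ± 0.0636 CPM after 24 h (SD, n = 4).

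*BX13* was closest to the chitinase gene *chn1* (GRMZM2G453805, r = 0.938), LOC100285115 (GRMZM2G081582, r = 0.938) and GRMZM2G135108 (r = 0.935). Unlike *BX13*, *chn1* was expressed in controls, at 11.8 ± 5.56 CPM (SD, n = 4), and reached 506 ± 85.8 and 482 ± 173 CPM with 24 h of *O. pratensis* and *T. urticae*. *BX14* was closest to GRMZM2G070371 (r = 0.968), GRMZM2G090245 (r = 0.964) and LOC100194181 (GRMZM2G180324, r = 0.959), none of which reached a group mean above 1.81 CPM. Among the members, r was 0.921 between *BX13* and *BX14* and 0.429 to 0.502 across the branches. Ranked by Spearman correlation, the 3 closest genes shared 0 of 3 with these lists for *BX10*, *BX11* and *BX13* and 2 of 3 for *BX14*.

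In a later assembly of B73 (Zm-B73-REFERENCE-NAM-5.0), *BX10* and *BX11* lie on one chromosome with 1 annotated gene between them, and *BX13* and *BX14* lie on another with 2713 genes between them. Reads that fit near-identical copies equally well were not counted, so *BX10* and *BX11*, which are related and neighbouring, could be undercounted where their sequences are the same.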

How the data were processed

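Strand-specific poly(A) libraries of 28 leaves were sequenced as paired ends by the authors, with replicates spread evenly across lanes. Alignment by the authors used STAR 2.5.2b and B73 RefGen_v3. They counted reads aligned uniquely to each gene on the sense strand with HTSeq 0.6.0, and deposited these counts without normalization. Groups were taken from the sample labels. The counts were tested here with edgeR 4.0.16 in R 4.3.3 (filterByExpr, TMM, quasi-likelihood test, 1 mean per group over all 28 libraries) with Benjamini-Hochberg adjustment over 22339 genes. SE is the log2 fold change divided by the square root of F. Log2 CPM used a prior count of 2. Within-leaf differences were compared by exact permutation over 70 splits. A ratio with 1 to 3 reads in a group has an exact Clopper-Pearson 95% interval, and bounds and intervals cover counting error only. Alternatives were DESeq2 1.42.0 (default, and with shrunken fold changes), RLE factors, no scaling, no filter, a fit limited to the groups compared, glmTreat, an adjusted p threshold of 0.05, a prior count of 0.5, the replicate number as a block, Spearman correlation and leaving out each library. Scripts were tested on simulated data. The members and lists (*BX1* to *BX9*, leaf markers, glucosidases and the 3 most correlated genes) were chosen with earlier results of these data known. Names came from a table of a later assembly, which matched 19059 identifiers, 18538 of them with one name, and 3 of the 4 members by identifier. Promoter and protein sequences were not used here.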

Additional observations from a re-analysis of the deposited data

Results flagged for a closer look

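In 3 groups of 4 leaves, 1 leaf stood apart from the other 3 by Dixon's criterion. In the group with 2 h of *O. pratensis*, replicate 4 held the only *BX13* read (0.0401 CPM). With 2 h of *T. urticae*, replicate 3 held both *BX14* reads (0.0894 CPM). After 24 h of wounding, replicate 4 had 0.537 CPM of *BX14*, 17 of the 20 reads of its group. The criterion marks about 1 in 20 groups by chance for normal values, a rate that does not hold for counts this low. It always marks a group with reads in only 1 leaf, as in the first 2 cases, which rest on 1 and 2 reads.

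The change from 2 to 24 h was called different between mite feeding and wounding for all 4 genes in an edgeR interaction test. It was added after the counts had been seen. On the log2 scale the change was higher with mites by 9.76 for *BX10* and 9 for *BX11*. The fitted differences were 7.64 for *BX13* and 7.68 for *BX14*, which depend on the prior count. The *BX14* call was lost with glmTreat (glmTreat adjusted p = 0.025) and in 12 of the 24 fits that left out 1 leaf. *BX13* and *BX14* had passed the expression filter through the leaves with 24 h of mites.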

How the results depend on the processing

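For 52 results of single genes, 988 alternative values were computed, of which 931 kept their direction and side of the threshold, 31 lost a call, 21 gained one and 5 changed sign. The causes of these changes were not tested. The calls of *BX10* and *BX11* against controls at 2 h and with 24 h of mites, and of *BX13* and *BX14* with 24 h of mites, held in every alternative run. The number of late genes called after 24 h of wounding was 2, but 4 with DESeq2, 0 with glmTreat and 1 to 2 when single libraries were left out. Between the mites at 2 h it was 2, but 0 with glmTreat, 0 in a fit of only the groups compared and 0 to 2 when single libraries were left out. Between the mites at 24 h it was 0, and 0 to 1 when single libraries were left out. For the species difference at 24 h against that at 2 h it was 0, but 1 with DESeq2, with its prior on fold changes, without a scaling factor or without an expression filter, 2 at an adjusted p threshold of 0.05 and 0 to 2 when single libraries were left out.

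Signs changed only for differences that were not called. With single libraries left out, the difference of *BX13* between the mites at 24 h ranged from -0.53 to 0.29, and the change of *BX14* from 2 to 24 h of wounding from -0.61 to 2.35. The change of *BX14* minus *BX13* ranged from -0.16 to 0.39 with *T. urticae* and from -0.38 to 0.72 after wounding, and that of *BX11* minus *BX10* after wounding from -0.15 to 0.39. With a prior count of 0.5, *BX14* minus *BX13* changed by -0.22 with *T. urticae* (exact permutation p = 0.743). The nearest genes by Spearman correlation were shared in 0 of 3 cases for *BX10*, *BX11* and *BX13* and in 2 of 3 for *BX14*.

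Replicate numbers were checked for pairing. Plants stood in a randomized block design, the library numbers in the labels run through the replicates in turn, and no source used here says that a replicate number is that of a block. Over 84 pairs of same-numbered leaves from different groups, the correlation of deviations from the group means ranged from -0.25 to 0.33. Its median was 0.13, against -0.04 for leaves of different numbers, and a leaf correlated best with its own number in 43 of 84 cases. Same-numbered leaves were thus more alike than others. The correlation was over 0.1, the cut-off used here, in 47 of the 84 pairs. The block stayed an alternative, and whether the numbers mark blocks is not settled. With the replicate block, 1 late gene (*BX14*) was called between the mites at 24 h and 1 (*BX11*) in the species difference at 24 h against that at 2 h, where the main fit called 0. No other count of calls changed, and the smallest exact p of the paired within-leaf test is 0.125.

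Depth limits *BX13* and *BX14* at 2 h and after wounding, where whole groups held 0 to 28 reads.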
